A study of Mus musculus with 18 samples.

Results

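The genes described here are the machinery that lets calcium ions into a neuron, releases them from its internal stores and pumps them out again. Members were the protein-coding genes of GENCODE vM21 whose symbol marks a voltage-gated calcium channel subunit (Cacn), a ryanodine receptor, an IP3 receptor, an Orai or Stim protein, a calcium pump of the Atp2a, Atp2b or Atp2c families, or a sodium-calcium exchanger of the Slc8 family. This rule found 50 genes among the 47643 identifiers of the count tables. Of these, 40 passed the filter on low counts (a library-scaled count, CPM, above 1 in 3 or more libraries) and were tested, as were 13771 genes in all.

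RNA was sequenced from embryonic dorsal root ganglion (eDRG) spot cultures, in which the ganglia of e13.5 CD-1 mouse embryos were dissociated and plated as small spots of cells. By the study's methods the medium of all groups held FDU, a mitotic inhibitor that acts on dividing cells. Control cultures were left uninjured and collected at day 7 in vitro (DIV7), and in the other 5 groups the axons were cut with a blade and the spots collected 1, 3, 8, 16 or 24 h post injury (HPI). Each of the 6 groups had 3 replicates and there were 18 libraries in all. The labels place the collection of injured spots on DIV7, whereas the study's text places the cut on DIV7. In the second case culture age would rise with time after injury, and culture age and injury cannot be told apart.

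Calcium enters a neuron mainly through voltage-gated channels. The high-voltage types join a pore-forming alpha-1 subunit with an alpha-2-delta and a beta subunit that carry it to the membrane and set its gating. Ryanodine and IP3 receptors release calcium from the endoplasmic reticulum, Stim proteins sense the emptying of that store and open Orai channels, SERCA pumps (Atp2a) refill it, and PMCA pumps (Atp2b) and sodium-calcium exchangers (Slc8) expel calcium across the plasma membrane. In sensory neurons the N-type pore Cacna1b and the alpha-2-delta subunit Cacna2d1 are best known from transmitter release and from the action of gabapentinoid drugs on pain, and a wave of calcium entry is among the earliest events in a cut axon.

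The libraries held 9478891 to 23082327 counts on genes, and the members took 0.275 to 0.39% of them, or 30739 to 78058 counts a library. A count of 3 corresponded to 0.131 to 0.318 CPM, taken as the floor of detection for counting error. Sensory neuron markers were abundant in every library, with a summed level of 6 markers between 7546 and 9158 CPM, whereas 3 satellite glia markers summed to at most 4.43 CPM, 6 Schwann cell markers to at most 8.32, 4 myeloid markers to at most 6.82, 3 endothelial markers to at most 1.33, 5 fibroblast markers to at most 19.4 and 8 muscle markers to at most 8.49. Fragments of ribosomal RNA that map to Gm23935 and Lars2 took 1.2% of the counts in 16 HPI replicate 1 and 0.474% in 16 HPI replicate 2, against at most 0.334% in the other libraries. The full list of 5 genes taken as a sign of such fragments summed to at least 9679 CPM in every library. Its range was 9909 to 13878 CPM in control and 12987 to 26785 CPM at 16 HPI. No satellite glia, Schwann cell, myeloid or fibroblast marker was at 0 in all 3 libraries of any group. Levels below are CPM scaled by the trimmed mean of M-values (TMM), and levels of different genes are compared only as reads per kilobase of exon at a common library size (RPKM). Nothing in the sources states whether the 3 replicates of a group are separate dissections, so that p-values measure the spread between these samples, which may be technical.

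In control cultures the calcium genes spanned a wide range of levels per length. The SERCA pump Atp2a2, which refills the endoplasmic reticulum, was the highest at 55.1 ± 5.46 RPKM over the union of exons (SD, n = 3). It was followed by the beta subunit Cacnb3 at 44.3 ± 1.38 RPKM and the N-type pore Cacna1b at 43.9 ± 3.00 RPKM, which differed from each other by less than their SD. Next came the alpha-2-delta subunit Cacna2d1 at 33.8 ± 2.27 RPKM and the plasma membrane pump Atp2b1 at 30.6 ± 2.36 RPKM, which also lay close to each other. This order depends on the length used. Over the longest transcript in place of the union of exons, Atp2b1 stood first at 65.3 RPKM, Cacnb3 at 64.9 RPKM and Atp2a2 below both at 59.1 RPKM.

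Within the role groups, the L-type pores were led by Cacna1c at 8.42 ± 1.13 RPKM, and Cacna1d stood at 1.12 RPKM. The low-voltage T-type pores were led by Cacna1h at 5.91 ± 0.735 RPKM, the gamma subunits by Cacng7 at 22.3 ± 2.80 RPKM and the Golgi pumps by Atp2c1 at 19.5 ± 3.08 RPKM. Store-operated entry was led by the sensor Stim2 at 11.5 ± 1.68 RPKM with the channel Orai2 beside it at 10.6 ± 0.475 RPKM, a difference below their spread. Over the longest transcript Orai2 led at 16.2 RPKM, above Stim2. The exchangers were led by Slc8a2 at 8.70 ± 1.90 RPKM.

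The channels that release stored calcium were the lowest groups. Ryr2 stood at 1.57 ± 0.292 RPKM, Ryr3 at 0.411 ± 0.142 RPKM and Ryr1 at 0.110 ± 0.0651 RPKM. Itpr3 (0.178 ± 0.0795 RPKM) and Itpr1 (0.165 ± 0.0287 RPKM) did not differ beyond their spread, and over the longest transcript Itpr1 was the higher at 0.307 RPKM against 0.178 RPKM. The genes that did not pass the filter were the L-type pores Cacna1s and Cacna1f, the T-type pore Cacna1i, Cacna2d4, Cacng1, Cacng6, Itpr2, the SERCA pumps Atp2a1 and Atp2a3, and Atp2c2. Cacng6, a gamma subunit known from muscle, had a count of 0 in all 18 libraries, which allows up to 0.131 to 0.318 CPM in a library. Cacna1s, the pore of skeletal muscle, had 3 counts over all libraries together, and Atp2c2 had 7. Itpr2 had the most counts of these genes in total, with 6 to 20 a library.

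**Figure D1:**
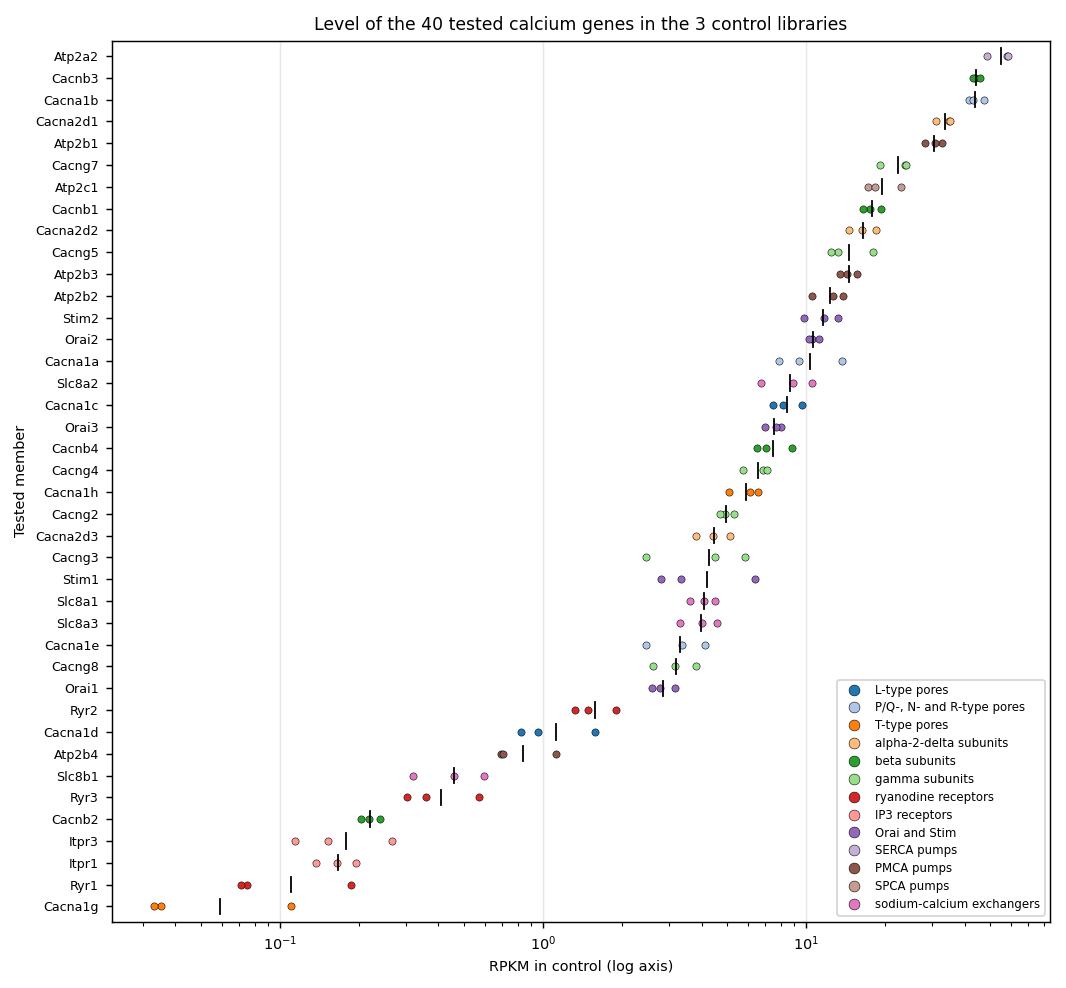
Level of the 40 tested calcium genes in control, one row per gene, as RPKM on a log axis; points are the 3 control libraries, coloured by role group, and the black tick is their mean. With lengths over the union of exons, Atp2a2 stands highest at 55.1 RPKM and the T-type pore Cacna1g lowest at 0.0592 RPKM, with the ryanodine and IP3 receptors in the lower part of the plot.

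To ask how this machinery changed after axotomy, edgeR's quasi-likelihood test set every time point against control over all 13771 genes, with the replicate number as a block and Benjamini-Hochberg adjustment. A gene passed with an adjusted p under 0.05. The calcium genes were lower after injury by modest amounts, and most calls came late. No member passed at 1 HPI in either direction by edgeR, against 0.182% of all genes lower and 0.0944% higher. At an unadjusted p under 0.05, 8 members were lower and 0 higher at 1 HPI, beside 1007 and 761 of all 13771 genes. DESeq2 passed 2 members as lower at 1 HPI, and edgeR passed 6 as lower with the 2 compared groups alone, 1 with the looser filter and 1 with ribosomal and mitochondrial genes left out. Of all genes, these settings passed 117 of 13771, 378 of 13077, 44 of 23606 and 41 of 14352 as lower, in that order. At 3 HPI 1 of 40 members was lower (all genes 0.145%) and 0 were higher (all genes 0.0436%). At an unadjusted p under 0.05 there were 11 lower and 0 higher at 3 HPI, beside 1140 and 859 of all genes. DESeq2 passed 2 members as lower and 0 as higher at 3 HPI, beside 121 and 28 of all 13771 genes. The count of lower members at 3 HPI was 2 without replicate 1 of either group and 0 without replicate 2 or 3 of either group. For these fits calls over all genes are not given here. Closest to the threshold at 1 HPI was Ryr2, at 39.6, 30.6 and 32.2 CPM against 54.5, 42.8 and 38.2 CPM in control (log2 −0.40, adjusted p = 0.0544), and closest among those that missed it at 3 HPI was Cacna1a (log2 −0.35, adjusted p = 0.0515).

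At 8 HPI 6 of 40 members were lower and 1 was higher, against 3.9% and 3.78% of all tested genes. The count of lower members at 8 HPI was 3 without control replicate 3 and 1 without 8 HPI replicate 3, with calls over all genes in those fits not given here. At 16 HPI 19 members (47.5%) were lower and 1 was higher, against 11.5% and 10.7% of all genes. At 24 HPI 17 members (42.5%) were lower, against 9.03% of all genes, and 0 were higher by edgeR or DESeq2 (1 at an unadjusted p under 0.05), against 5.99%. Over the 6 groups together 23 members passed (57.5%), against 30% of all genes. With upper-quartile factors the split of all genes at 24 HPI turned from 1243 lower and 825 higher to 954 lower and 1194 higher, and the members stayed at 17 lower and 0 higher. The comparisons with control share their control libraries.

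The median log2 fold change of the 40 members was −0.09, −0.11, −0.09, −0.23 and −0.22 at 1, 3, 8, 16 and 24 HPI, with that of all tested genes between −0.0022 and 0.0021. At 16 HPI 36 of the 40 members lay below 0 (90%), as did 50.5% of all genes. The summed level of all members was 3487, 3581 and 3761 CPM in control and 3026, 2944 and 2986 CPM at 16 HPI. At 24 HPI it was 2920, 2964 and 3113 CPM. No injured library of these late groups reached the lowest control, and the mean differed from control by −17.3% at 16 HPI and −16.9% at 24 HPI (exact permutation of signs within replicate numbers, two-sided p = 0.25 in both, the smallest that 3 pairs allow). The earlier groups were lower too, by less. All libraries of the 3 HPI group (3383, 3217 and 3462 CPM) and the 8 HPI group (3319, 3258 and 3307 CPM) lay below the lowest control. Their means differed from control by −7.07% and −8.72%. The 1 HPI group had 3232, 3244 and 3594 CPM, the last within the control range, and its mean differed by −7.0%. The same permutation test gave p = 0.25 for each of these earlier groups. In bulk RNA, fewer cells of a type and less RNA per cell cannot be told apart.

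The size of the changes was small. The 19 members that fell at 16 HPI changed by −8.87 to −43.1%, and the 17 at 24 HPI by −12.8 to −35.6%. With the study's added rule of a change over 2-fold, 1 member was called, the mitochondrial exchanger Slc8b1 at 8 HPI. Of all genes, this rule called 0.029% at each of 1 and 3 HPI, 0.537% at 8, 1.49% at 16 and 0.821% at 24 HPI.

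**Figure D2:**
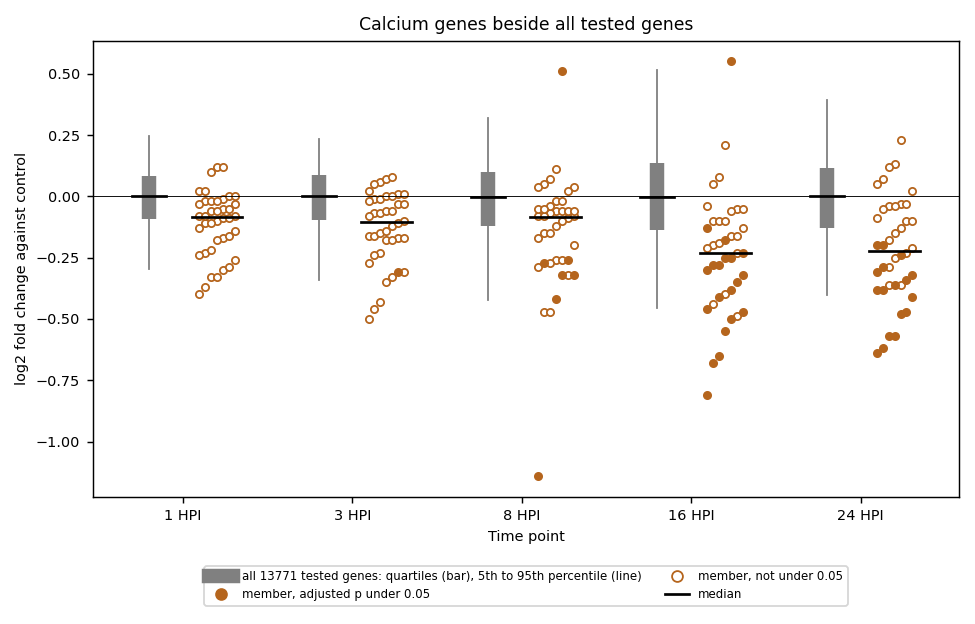
Log2 fold change against control at each time point for all tested genes (grey bar quartiles, line the 5th to 95th percentile) and for each of the 40 tested calcium genes (circles, filled where the adjusted p was under 0.05), with medians as black lines. The calcium genes sit lower than all genes, with medians of −0.23 at 16 HPI and −0.22 at 24 HPI beside medians near 0.

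Samples differed by replicate number. In 23 of the 40 tested members (57.5%) one replicate number lay above or below both others in all 6 groups, as it did in 36.6% of all tested genes. The store sensor Stim1 is an example, with 58.4 to 66.3 CPM in replicate 3 of the 6 groups and 23.9 to 38.1 CPM in replicates 1 and 2. Without the replicate block, edgeR passed 0 members at 3 or 8 HPI (DESeq2, with the block, 2 and 7), 6 as lower and 0 as higher at 16 HPI, 1 as lower at 24 HPI and 1 over the 6 groups. Calls over all 13771 genes also fell in number, to 300 lower and 406 higher at 16 HPI and 93 lower and 60 higher at 24 HPI. The 6 that still fell at 16 HPI were Cacna2d2, Cacnb3, Cacng8, Atp2b1, Atp2b2 and Atp2b3, and the 1 at 24 HPI was Atp2b2. Of the 45 pairs of a member and a time point that passed against control, 44 had the same sign in all 3 replicate numbers, and in 21 the libraries of the time point and of control did not overlap in CPM. A test blocked on replicate number favours pairs with one sign, and neither count was set beside all genes. Both describe the calls and are no further support for them.

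**Figure D3:**
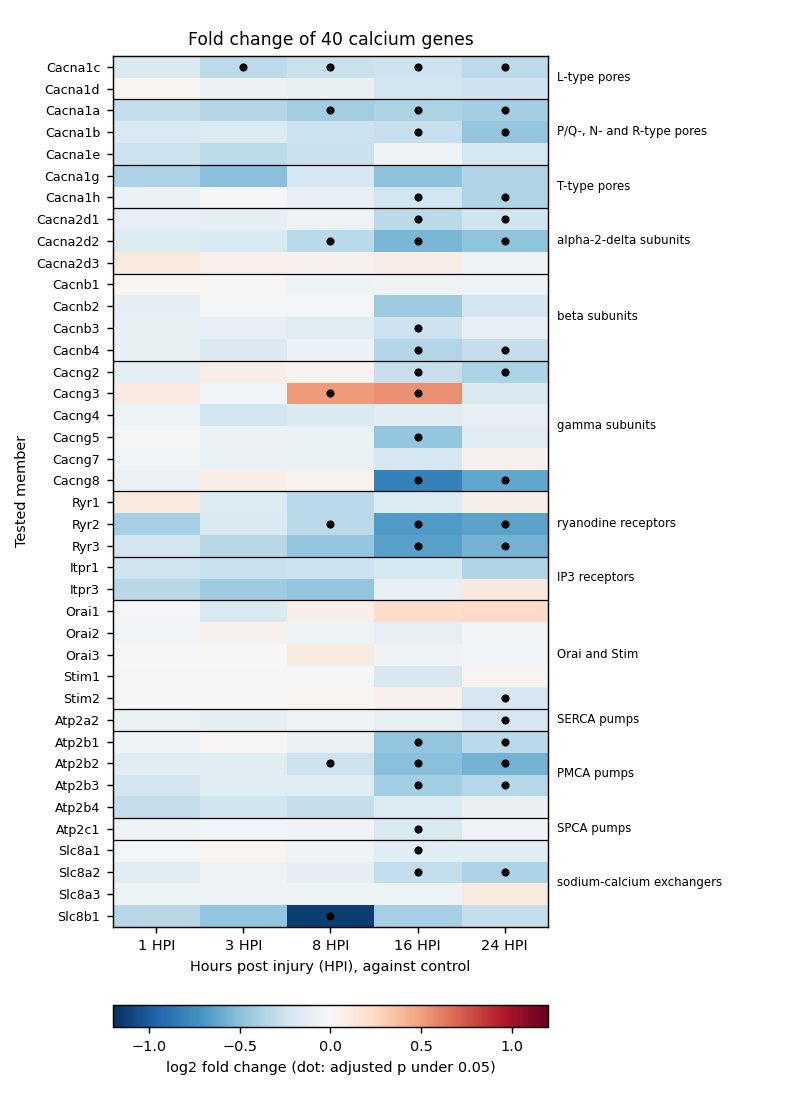
Log2 fold change of the 40 tested calcium genes (rows, grouped by role) at each time point against control, on a colour scale that is blue below 0 and red above 0, with a dot where the adjusted p was under 0.05. Most dots lie in the 16 and 24 HPI columns on blue cells, with Cacng3 as the red exception at 8 and 16 HPI.

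The sequences upstream of 3 members that fell are shown because the annotated ends of these genes coincide in RefSeq and GENCODE, so that the window holds only bases before the start. Cacna1b is the highest pore, Ryr2 the highest channel of the internal stores, and Cacng5 the one member with a match to a searched motif. Each is the 250 bases before a RefSeq start (GRCm38.p6), 5′ to 3′ on the strand of the gene, with the match to the AP-1 motif in capitals. Cacng5 has another RefSeq start, whose upstream bases (chr11:107911363-107911612) held no match and are not shown.
Cacna1b, chr2:24763153-24763402, minus strand: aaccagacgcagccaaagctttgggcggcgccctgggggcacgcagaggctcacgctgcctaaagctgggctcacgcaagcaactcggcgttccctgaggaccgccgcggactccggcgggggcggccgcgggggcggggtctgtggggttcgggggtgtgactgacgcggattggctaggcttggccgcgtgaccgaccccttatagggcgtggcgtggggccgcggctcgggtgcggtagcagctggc
Ryr2, chr13:12106946-12107195, minus strand: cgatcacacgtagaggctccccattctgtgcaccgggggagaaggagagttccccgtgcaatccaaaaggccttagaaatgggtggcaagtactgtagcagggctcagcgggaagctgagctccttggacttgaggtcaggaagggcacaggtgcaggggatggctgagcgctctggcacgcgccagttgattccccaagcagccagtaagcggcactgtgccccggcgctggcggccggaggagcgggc
Cacng5, chr11:107915056-107915305, minus strand: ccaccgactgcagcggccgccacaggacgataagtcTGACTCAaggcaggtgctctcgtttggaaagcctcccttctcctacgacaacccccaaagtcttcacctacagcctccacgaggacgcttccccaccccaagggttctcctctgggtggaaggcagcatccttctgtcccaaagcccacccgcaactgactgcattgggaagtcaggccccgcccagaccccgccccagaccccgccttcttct

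Promoter windows were found in RefSeq for 38 of the 50 members, 51 windows of 300 bases. The motifs searched on both strands were AP-1 (TGACTCA or TGAGTCA), the cAMP response element (TGACGTCA) and EGR (GCGTGGGCG), letters known to be bound by factors active in neurons after injury or activity. A match is a run of letters and not a measured binding site. AP-1 was found in 1 of the 51 windows (1.96%), that of Cacng5, against 5.2% of all 32851 windows. The cAMP response element and EGR letters were in 0 of the 51, against 1.79% and 0.612% of all windows. The upstream bases of the member windows had a median GC content of 62.4%, against 52.4% over all windows.

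Among the pore-forming subunits, the L-type pore Cacna1c (chr6:118587240-119196418), which couples electrical activity to gene expression, was the earliest to pass. Its level was 158, 173 and 205 CPM in control, 141, 133 and 156 CPM at 3 HPI and 135, 151 and 156 CPM at 8 HPI. No library at 3 or 8 HPI reached the lowest control. It fell by 0.31 ± 0.0616 on the log2 scale (fold change ± SE) at 3 HPI (adjusted p = 0.0443). The call at 3 HPI was lost with GC and length offsets, with the 2 compared groups alone, and without control replicate 2 or 3 or 3 HPI replicate 2 or 3. Cacna1c was also lower at 8 HPI (log2 −0.27, adjusted p = 0.00982, not without replicate 3 of either group), at 16 HPI (log2 −0.25, adjusted p = 0.00574) and at 24 HPI (log2 −0.31, adjusted p = 0.00162), the last not with GC and length offsets. The other tested L-type pore, Cacna1d, had log2 values of −0.23 at 16 HPI and −0.25 at 24 HPI that did not pass (adjusted p = 0.151 and 0.128).

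Of the presynaptic pores, Cacna1a first passed at 8 HPI and Cacna1b at 16 HPI. Cacna1a (chr8:84388440-84640246), the P/Q-type pore, had 90, 107 and 156 CPM in control, 72.1, 83.7 and 105 CPM at 8 HPI, 78, 85.6 and 102 CPM at 16 HPI and 68.8, 87.6 and 107 CPM at 24 HPI. The groups overlapped, but within each replicate number every one of these values was below its control. Cacna1a fell by 0.42 ± 0.0752 at 8 HPI (adjusted p = 0.00149), by 0.38 ± 0.0745 at 16 HPI (adjusted p = 0.000706) and by 0.41 ± 0.0738 at 24 HPI (adjusted p = 0.000778), all on the log2 scale. Its earlier log2 values of −0.30 at 1 HPI (adjusted p = 0.0833) and −0.35 at 3 HPI (adjusted p = 0.0515) did not pass. The order in which pores passed is therefore not an order of onset.

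Cacna1b (chr2:24603887-24763152), the N-type pore of sensory terminals, had 413, 427 and 470 CPM in control and 404, 332 and 346 CPM at 16 HPI. At 24 HPI it had 309, 307 and 331 CPM, well below every control. The log2 fold change was −0.28 ± 0.0808 at 16 HPI (adjusted p = 0.0166), not passing without control replicate 2 or without 16 HPI replicate 3, and −0.47 ± 0.0808 at 24 HPI (adjusted p = 0.000523). The R-type pore Cacna1e had log2 values from −0.31 to −0.05 over the 5 time points and did not pass at any.

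Of the T-type pores, which open near the resting potential, Cacna1h (chr17:25374285-25433783) had 63.8, 49.8 and 59.5 CPM in control, 57.3, 38.5 and 52.1 CPM at 16 HPI and 47.6, 36.4 and 51.2 CPM at 24 HPI. The groups overlapped, and each replicate number was lower than its own control. Cacna1h fell by 0.23 ± 0.0666 at 16 HPI (adjusted p = 0.0139) and by 0.36 ± 0.0662 at 24 HPI (adjusted p = 0.000904) on the log2 scale. The 16 HPI call was lost with GC and length offsets and without control replicate 1 or 2 or 16 HPI replicate 2 or 3. Cacna1g was near the filter, with 3 to 21 counts a library, and did not pass.

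The auxiliary subunits divided by gene. Cacna2d2 (chr9:107399612-107529343), an alpha-2-delta subunit, had 129, 116 and 146 CPM in control, 103, 96.8 and 114 CPM at 8 HPI, 86.7, 84.5 and 96 CPM at 16 HPI and 80.2, 85.7 and 115 CPM at 24 HPI. All 9 libraries of these time points lay below the lowest control. Its log2 fold change was −0.32 ± 0.0668 at 8 HPI (adjusted p = 0.00579), −0.55 ± 0.0669 at 16 HPI (adjusted p = 6.4e-06) and −0.48 ± 0.0661 at 24 HPI (adjusted p = 5.5e-05). The 8 HPI call was lost without 8 HPI replicate 3.

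Cacna2d1 (chr5:15934691-16374511), the main target of gabapentin, had 434, 439 and 388 CPM in control, 396, 306 and 310 CPM at 16 HPI and 411, 336 and 322 CPM at 24 HPI. Replicate 1 of both late groups lay within the range of the controls. It fell by 0.32 ± 0.0629 at 16 HPI (adjusted p = 0.000732) and by 0.24 ± 0.0627 at 24 HPI (adjusted p = 0.0113) on the log2 scale, the latter not without control replicate 2 or 24 HPI replicate 2. Cacna2d3 had log2 values from −0.04 to 0.12 and did not pass at any time point.

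Of the beta subunits, which bind the pore from the cytoplasm, Cacnb3 (chr15:98630840-98644529) had 176, 173 and 183 CPM in control and 157, 145 and 147 CPM at 16 HPI. The groups did not overlap, and Cacnb3 fell by 0.25 ± 0.0460 on the log2 scale (adjusted p = 0.000486). At 24 HPI its levels of 163, 158 and 175 CPM gave a log2 value of −0.10 that did not pass (adjusted p = 0.138). Cacnb4 (chr2:52428320-52676831) had 58.3, 79.1 and 62.9 CPM in control, 46.1, 54.4 and 55.5 CPM at 16 HPI and 49.4, 65.2 and 48.6 CPM at 24 HPI. The groups did not overlap at 16 HPI and overlapped at 24 HPI, with log2 fold changes of −0.35 ± 0.0716 (adjusted p = 0.00119) and −0.29 ± 0.0706 (adjusted p = 0.0072). The 24 HPI call was lost without control replicate 2 or 24 HPI replicate 3, and 16.0% of the exon bases of Cacnb4 also lie in the annotated gene A430018G15Rik, whose reads could not be told apart if strand was not used in counting. Cacnb1 had log2 values from −0.06 to 0.02, and neither it nor Cacnb2 passed at any time point.

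The gamma family held the largest fall at 16 HPI and the one rise. Several of these proteins are better known as TARPs, which carry AMPA-type glutamate receptors to the synapse, than as calcium channel subunits. Cacng8 (chr7:3390683-3415648), a TARP, had 8.94, 7.45 and 6.12 CPM in control, 7.5, 8.69 and 7.17 CPM at 8 HPI, 5.26, 3.62 and 3.89 CPM at 16 HPI and 5.08, 4.3 and 4.98 CPM at 24 HPI. Levels at 8 HPI lay within the control range, and every library at 16 and 24 HPI lay below it. The log2 fold change was −0.81 ± 0.155 at 16 HPI (adjusted p = 0.000592) and −0.62 ± 0.147 at 24 HPI (adjusted p = 0.00643). Its lowest library had 64 counts.

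Cacng3 (chr7:122670492-122769393), also a TARP, moved the other way and came back. It had 6.81, 12.5 and 16.2 CPM in control, 11.6, 21 and 18.3 CPM at 8 HPI and 14.8, 16.4 and 20.1 CPM at 16 HPI. At 24 HPI it had 6.73, 13 and 11.3 CPM. Each replicate number was above its control at 8 and 16 HPI, although the groups overlapped. Cacng3 rose by 0.51 ± 0.134 at 8 HPI (adjusted p = 0.0236) and by 0.55 ± 0.132 at 16 HPI (adjusted p = 0.00416) on the log2 scale, and at 24 HPI was lower than at 16 HPI by 0.73 ± 0.132 (adjusted p = 0.00112). The call at 8 HPI was lost without control replicate 1 or 2 or 8 HPI replicate 1 or 2.

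Cacng5 (chr11:107874605-107915055) fell at 16 HPI, from 50.7, 69 and 47.6 CPM in control to 37.6, 48.2 and 35.4 CPM, and had 46.7, 60.7 and 43.1 CPM at 24 HPI. In each replicate number it was lowest at 16 HPI of all 6 groups. The log2 fold change was −0.46 ± 0.0610 at 16 HPI (adjusted p = 1.5e-05) and −0.15 ± 0.0592 at 24 HPI (adjusted p = 0.0927). Between 16 and 24 HPI it rose by 0.31 ± 0.0610 (adjusted p = 0.0023). Cacng2 (chr15:77991748-78120028), the TARP stargazin, had 27, 29.3 and 25.8 CPM in control, 17.1, 26.6 and 24.1 CPM at 16 HPI and 17.9, 23.6 and 22.1 CPM at 24 HPI. It fell by 0.28 ± 0.0951 at 16 HPI (adjusted p = 0.0361) and by 0.38 ± 0.0941 at 24 HPI (adjusted p = 0.00966), and the calls were lost at 16 HPI with upper-quartile factors, with the looser filter, with the 2 groups alone and without control replicate 1 or 2 or 16 HPI replicate 1 or 3, and at 24 HPI without control replicate 1.

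The genes next to these on the chromosome did not pass. Cacng4 lies 80 kb from Cacng5 on chromosome 11 and had log2 values of −0.13 at 16 HPI (adjusted p = 0.258) and −0.10 at 24 HPI (adjusted p = 0.408). Cacng7, the highest gamma gene, lies 22.5 kb from Cacng8 on chromosome 7 and had −0.20 at 16 HPI (adjusted p = 0.13) and 0.05 at 24 HPI (adjusted p = 0.765). Cacng6, on the other side of Cacng8 at 8.55 kb, was not detected. Whether neighbours differed from each other was not tested.

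**Figure D4:**
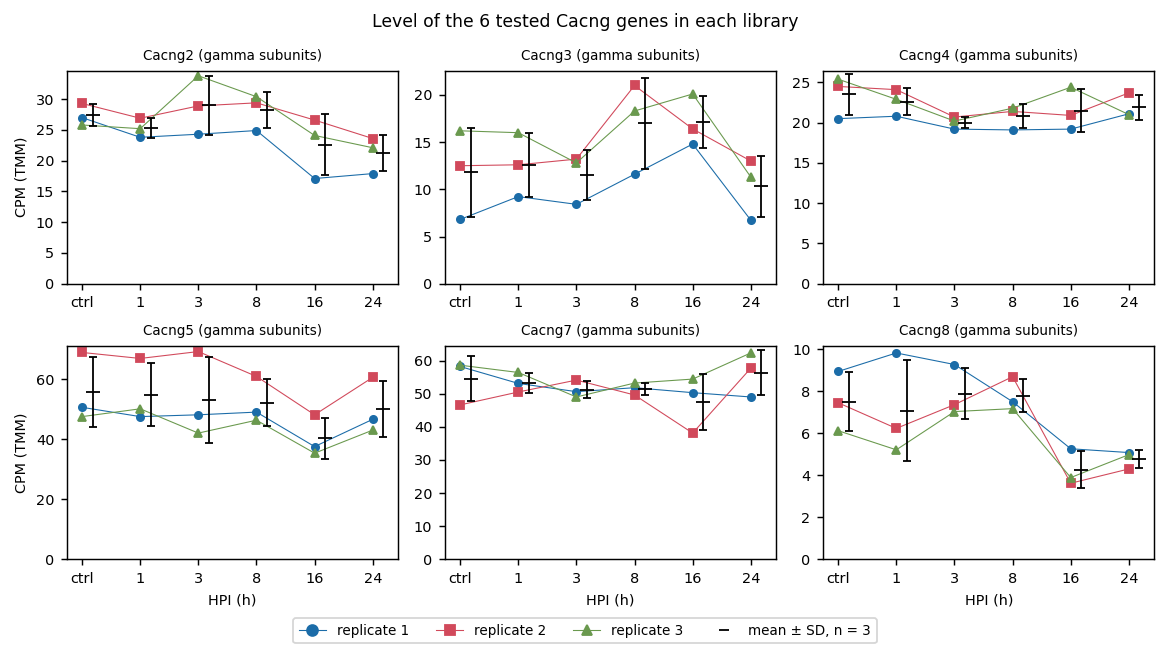
Level of the 6 tested Cacng genes in each of the 18 libraries, as TMM-scaled CPM against time after injury, with one line per replicate number and the mean ± SD (n = 3) in black; axes start at 0. Cacng8 drops between 8 and 16 HPI to 3.62 to 5.26 CPM, Cacng3 stands at 11.6 to 21 CPM at 8 and 16 HPI and at 6.73 to 13 CPM at 24 HPI, and Cacng5 is lowest at 16 HPI.

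Among the release channels of the endoplasmic reticulum, Ryr2 (chr13:11553102-12106945), the main ryanodine receptor of neurons and heart, had 54.5, 42.8 and 38.2 CPM in control and 40.5, 32.9 and 34.6 CPM at 8 HPI. It had 35.4, 27.3 and 22 CPM at 16 HPI and 34.7, 25.4 and 26.9 CPM at 24 HPI. All 6 late libraries lay below the lowest control. The log2 fold change was −0.32 ± 0.0884 at 8 HPI (adjusted p = 0.0308), −0.68 ± 0.0893 at 16 HPI (adjusted p = 1.3e-05) and −0.64 ± 0.0876 at 24 HPI (adjusted p = 5.4e-05). The 8 HPI call was lost with GC and length offsets and without control replicate 1 or 2 or any 8 HPI library.

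Ryr3 (chr2:112631355-113217096) had 6.81, 5.75 and 10.8 CPM in control, 4.9, 4.08 and 5.94 CPM at 16 HPI and 4.29, 4.72 and 6.58 CPM at 24 HPI. Replicate 3 was highest in each group, and the groups overlapped. Its log2 fold change was −0.65 ± 0.152 at 16 HPI (adjusted p = 0.00349) and −0.57 ± 0.146 at 24 HPI (adjusted p = 0.0108). The call was lost at 16 HPI without 16 HPI replicate 3, and at 24 HPI with GC and length offsets and without control replicate 3 or 24 HPI replicate 3. Ryr1 and the IP3 receptors Itpr1 and Itpr3 did not pass at any time point, at 14 to 87 counts a library. The standard errors of their log2 fold changes at 16 HPI were 0.192 for Ryr1, 0.207 for Itpr1 and 0.251 for Itpr3, against 0.0893 for Ryr2.

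Of the 5 genes of store-operated entry, Stim2 was the one that passed at any time point. Orai1, the pore of this pathway, had 5.95, 6.41 and 7.28 CPM in control, 8.1, 7.47 and 7.29 CPM at 16 HPI and 7.71, 7.71 and 7.72 CPM at 24 HPI, and its log2 values of 0.21 ± 0.114 and 0.23 ± 0.111 did not pass (adjusted p = 0.206 and 0.171), although neither group overlapped control. Orai2 had log2 values from −0.10 to 0.05 and Orai3 from −0.04 to 0.11 over the 5 time points. Stim1 had a log2 value of −0.19 at 16 HPI (adjusted p = 0.201) and 0.02 at 24 HPI (adjusted p = 0.93).

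Stim2 (chr5:53998499-54121057), the more sensitive of the store sensors, had 50.4, 67.6 and 59.8 CPM in control, 53.9, 66.9 and 63.2 CPM at 16 HPI and 44.8, 57.6 and 52.4 CPM at 24 HPI. In each replicate number it was lowest at 24 HPI of all 6 groups. It fell by 0.20 ± 0.0553 on the log2 scale at 24 HPI (adjusted p = 0.0191), and between 16 and 24 HPI by 0.25 ± 0.0554 (adjusted p = 0.00533). The call against control was lost with the looser filter and without control replicate 2 or 24 HPI replicate 1 or 3.

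Of the 4 plasma membrane pumps 3 fell at 16 HPI and 3 at 24 HPI. Atp2b1 (chr10:98914406-99026143), the housekeeping PMCA pump, had 501, 468 and 429 CPM in control, 485, 434 and 407 CPM at 8 HPI, 342, 360 and 304 CPM at 16 HPI and 392, 354 and 369 CPM at 24 HPI. Every library at 16 and 24 HPI lay below every control. Atp2b1 fell by 0.47 ± 0.0533 at 16 HPI (adjusted p = 2.3e-06), the smallest adjusted p of any member against control, and by 0.32 ± 0.0531 at 24 HPI (adjusted p = 0.000308) on the log2 scale. From 8 to 16 HPI it fell by 0.40 ± 0.0533 (adjusted p = 5.1e-05).

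Atp2b2 (chr6:113743831-114042613), a fast PMCA pump of neurons and hair cells, had 133, 160 and 174 CPM in control, 118, 142 and 130 CPM at 8 HPI, 98.7, 130 and 103 CPM at 16 HPI and 86.7, 113 and 116 CPM at 24 HPI. The late groups lay below control without overlap. The log2 fold change was −0.26 ± 0.0670 at 8 HPI (adjusted p = 0.021), −0.50 ± 0.0671 at 16 HPI (adjusted p = 1.8e-05) and −0.57 ± 0.0668 at 24 HPI (adjusted p = 1.2e-05). The 8 HPI call was lost with GC and length offsets and without control replicate 3 or 8 HPI replicate 3.

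Atp2b3 (chrX:73503086-73571005), a PMCA pump largely restricted to neurons, had 64.9, 69.2 and 75.4 CPM in control, 47, 60.5 and 51 CPM at 16 HPI and 49.8, 58.6 and 57.2 CPM at 24 HPI. The groups did not overlap, and Atp2b3 fell by 0.41 ± 0.0703 (adjusted p = 0.000219) and 0.34 ± 0.0693 (adjusted p = 0.00187) on the log2 scale. Atp2b4 had log2 values from −0.29 to −0.09 and did not pass at any time point.

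Each of the internal membrane systems had one tested pump. Atp2a2 (chr5:122453513-122502225) had 297, 354 and 355 CPM in control, 295, 329 and 312 CPM at 16 HPI and 266, 311 and 296 CPM at 24 HPI. The groups overlapped, and it fell by 0.20 ± 0.0492 on the log2 scale at 24 HPI (adjusted p = 0.00766), not without control replicate 2. Atp2c1 (chr9:105403539-105527319), which loads the Golgi with calcium and manganese, had 223, 167 and 177 CPM in control and 203, 143 and 158 CPM at 16 HPI. It fell by 0.18 ± 0.0444 (adjusted p = 0.00639), with groups that overlapped, and had a log2 value of −0.04 at 24 HPI (adjusted p = 0.576). Of the exon bases of Atp2c1, 18.9% also lie in Aste1.

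The sodium-calcium exchangers gave small or uncertain changes. Slc8a2 (chr7:16129826-16161063), the neuronal exchanger, had 46.7, 35.3 and 55.3 CPM in control, 34.4, 36.1 and 40.3 CPM at 16 HPI and 30.3, 27.6 and 48.3 CPM at 24 HPI. Replicate 2 at 16 HPI was above its control, the one exception in sign among the pairs that passed. The log2 fold change was −0.30 ± 0.0975 at 16 HPI (adjusted p = 0.0332) and −0.38 ± 0.0964 at 24 HPI (adjusted p = 0.0102). The call was lost at 16 HPI with upper-quartile factors and without control replicate 1 or 3 or 16 HPI replicate 1 or 3, and at 24 HPI without control replicate 1 or 24 HPI replicate 1 or 2.

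Slc8a1 (chr17:81373105-81738377), the exchanger of heart and many other tissues, had 68.2, 84.9 and 76.8 CPM in control and 67.6, 73.9 and 67.5 CPM at 16 HPI, overlapping. Its log2 value of −0.13 ± 0.0476 was just past the threshold (adjusted p = 0.0476), and the call was lost in 12 of 15 alternatives. Slc8b1 (chr5:120511168-120534024), which exports calcium from mitochondria, was near the filter at 7 to 43 counts a library. It had 1.58, 1.11 and 2.07 CPM in control and 0.665, 0.742 and 0.808 CPM at 8 HPI without overlap, and fell by 1.14 ± 0.269 on the log2 scale (adjusted p = 0.0123). The call was lost with DESeq2 and without control replicate 3 or 8 HPI replicate 1 or 3, and at 16 and 24 HPI the log2 values of −0.40 and −0.29 did not pass. Slc8a3 had log2 values from −0.06 to 0.12 and did not pass at any time point.

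**Figure D5:**
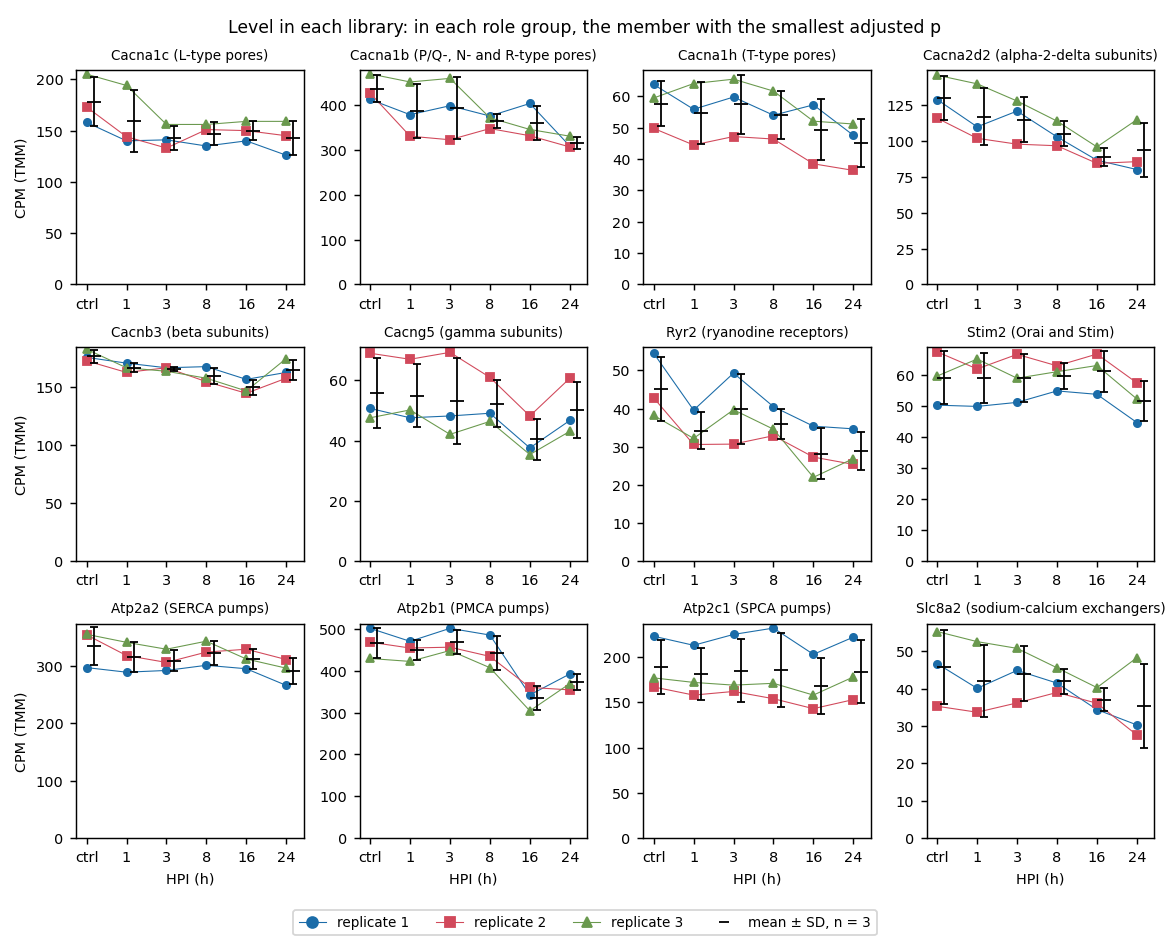
Level in each of the 18 libraries, as TMM-scaled CPM against time after injury, of the member with the smallest adjusted p in each role group that had one; lines join libraries of one replicate number, black marks are the mean ± SD (n = 3) and axes start at 0. Atp2b1 steps down between 8 and 16 HPI to 304 to 360 CPM, Stim2 is lowest at 24 HPI (44.8 to 57.6 CPM), and Ryr2 stands at 22 to 35.4 CPM at 16 and 24 HPI.

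To see whether levels fell further after 8 HPI, 16 HPI was compared with 8 HPI, a comparison added after the data had been seen. Of the 40 members 11 were lower at 16 HPI than at 8 HPI, against 7.88% of all genes. By edgeR 0 were higher, against 7.3% of all genes, with 0 by DESeq2 and 1 at an unadjusted p under 0.05. The 11 were Cacna2d1, Cacna2d2, Cacnb4, Cacng2, Cacng5, Cacng8, Ryr2, Atp2b1, Atp2b2, Atp2b3 and Atp2c1. Cacng8 had the largest change, −0.86 ± 0.159 on the log2 scale (adjusted p = 0.000923). Without the block 1 of the 11 passed, Atp2b1. Without 16 HPI replicate 1, the library with the largest share of counts on Gm23935 and Lars2, 5 were lower and 1 was higher. Without 8 HPI replicate 1 or without 16 HPI replicate 3, 6 were lower. Calls over all genes in these fits with a library left out are not given here. With upper-quartile factors 8 were lower and 0 higher, while the split of all genes turned from 1085 lower and 1005 higher to 718 lower and 1370 higher.

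Between 16 and 24 HPI 2 members were lower, Cacng3 and Stim2, against 6.22% of all genes. Cacng5 was the 1 member that was higher, against 3.59% of all genes. The count of higher members was 3 with upper-quartile factors, with GC and length offsets and without 24 HPI replicate 2, and 2 without 16 HPI replicate 2 or 3 or 24 HPI replicate 1. With 37 of 40 members not passing and a median log2 difference of 0.05, the lower levels of 16 HPI were for the most part not shown to have changed by 24 HPI, which does not show that they stayed the same. Without the replicate block none of the 3 passed.

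Depth and gene length went with the calls. At 16 HPI the 20 that passed had a median of 21812 counts over the 18 libraries, and the 20 that did not had 6049. The calcium genes are long, with a median span of 122 kb and a median exon length of 8.99 kb among tested members, against 23.2 kb and 4.42 kb over all tested genes. Members that passed at 16 HPI had a median span of 129 kb, and those that did not had 83.7 kb. With offsets for GC content and length, 17 members were lower and 1 was higher at 16 HPI, 15 were lower at 24 HPI, and the median log2 fold change was −0.19 and −0.17. Of all 13771 genes, these offsets passed 1604 as lower and 1593 as higher at 16 HPI. At 24 HPI they passed 1028 as lower, against 1243 without them.

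Some markers of cell types moved at the same time points. The summed level of the 6 sensory neuron markers was 8727 to 8879 CPM in control, 7546 to 8360 CPM at 16 HPI and 7912 to 8020 CPM at 24 HPI, below control without overlap at both. Of these, the neuronal tubulin Tubb3 fell by 0.40 at 16 HPI (adjusted p = 1.1e-05) and by 0.37 at 24 HPI (adjusted p = 6.8e-05) on the log2 scale. Avil and Prph did not pass at either time, and at 24 HPI Pou4f1 and Isl1 were higher (log2 0.20 and 0.26, adjusted p = 0.0074 and 0.00747). Of the 4 myeloid markers 2 were tested and Cd68 was higher at 16 HPI (log2 0.97, adjusted p = 0.00698), and of the 5 fibroblast markers 4 were tested and Dcn was higher at 16 HPI (log2 2.07, adjusted p = 1.8e-05), both at no more than 71 counts a library. The summed myeloid markers ranged from 3.37 to 4.88 CPM in control and from 5.24 to 5.77 CPM at 16 HPI, and the fibroblast markers ranged from 2.51 to 9.44 CPM in control and from 4.42 to 14.5 CPM at 16 HPI. At 24 HPI Cd68 was higher by 0.93 (adjusted p = 0.0125) and Dcn by 2.22 (adjusted p = 1.6e-05) on the log2 scale. The part of these shifts in the calcium gene changes was not tested.

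Other genes of calcium handling, from lists chosen with earlier results of these data known, were counted in the same fit. Their counts stand beside the shares of all tested genes, 11.5% lower and 10.7% higher at 16 HPI and 9.03% lower and 5.99% higher at 24 HPI, and shares near these are no result about a list. Enzymes and targets of calmodulin changed in both directions. Of 17 genes 7 were lower (41.2%) and 2 higher at 16 HPI, with a median log2 fold change of −0.08, and 4 were lower and 2 higher at 24 HPI. The calcium/calmodulin kinase Camk2a fell by 0.50 and Camk2b by 0.28 (adjusted p = 0.000808 and 9.6e-05), and so did Camk2g, Camk4, Camk1g and the calcineurin subunits Ppp3ca and Ppp3cb. Camk1d rose by 0.49 (adjusted p = 3.9e-05) and Ppp3cc, another calcineurin catalytic subunit, by 0.38 (adjusted p = 0.00142). The 3 calmodulin genes themselves did not pass, with log2 values from 0.01 to 0.04.

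Of 12 calcium buffers and sensors 2 were lower at 16 HPI (16.7%), both potassium channel interacting proteins, Kcnip3 (log2 −0.54, adjusted p = 5.8e-05) and Kcnip4 (log2 −0.37, adjusted p = 0.0129). Of 12 tested store partners 2 were lower (16.7%) and 1 higher. The junctophilins Jph3 and Jph4, which hold the endoplasmic reticulum against the plasma membrane near ryanodine receptors, fell by 0.25 and 0.27 (adjusted p = 0.00253 and 0.000915), and the scaffold Homer3 rose by 0.68 (adjusted p = 0.00396). At 24 HPI 4 of the 12 were lower (Jph1, Jph3, Jph4 and Homer2) and Homer3 was higher (log2 0.95, adjusted p = 0.000272). Of 8 genes of mitochondrial uptake 1 was lower (12.5%) and 1 higher, Letm1 (log2 −0.17, adjusted p = 0.0394) and Mcur1 (log2 0.57, adjusted p = 0.0202), and the uniporter pore Mcu did not pass (log2 −0.07). Among 3 tested potassium-dependent exchangers Slc24a2 was lower (log2 −0.22, adjusted p = 0.0476). Of the adaptors of L-type channels Stac was higher (log2 0.15, adjusted p = 0.0397) and Stac2 did not pass. The 4 RGK inhibitors of calcium channels, Rrad, Gem, Rem1 and Rem2, were not tested, with at most 18 counts in any library.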

How the data were processed

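Members, gene lists and motifs were chosen with earlier results of these data known. The deposited values are raw counts per gene, to which the authors applied no normalization. The submitters' processing notes name FastQC, STAR, HTSeq, DESeq2 and mm10, while the study's methods name featureCounts. Each table ends in 5 entries named as by htseq-count, which held 25.2 to 33.2% of reads and were left out. Whether strand was used in counting is not given in the sources used here.

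Of the 47643 identifiers, 47224 matched GENCODE vM21 (GRCm38). With edgeR 4.0.16 in R 4.3.3, 13771 genes passed the filter and were fitted over the 18 libraries with TMM factors and terms for time point and replicate number (two-sided). The replicate number was the block because the study's methods correct for batch, and no source states that same-numbered libraries belong together. The deviations of same-numbered libraries from their group means correlated at 0.484 to 0.765 in all 45 pairs. Those of differently numbered ones correlated at −0.577 to −0.0423 in 90 pairs. Deviations cancel out within each group, which by itself makes these values negative when the first are positive. The SE of a log2 fold change is its absolute value divided by the square root of the F statistic of its test. RPKM used the union of exons. Values of 1 sensory neuron marker are not reported here. The code was tested on simulated data.

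Given in full were members that passed against control at any time point and, in each role group, the member with the highest RPKM in control. Alternatives were DESeq2 1.42.0, DESeq2 or upper-quartile factors within edgeR, a looser filter (a summed count of 10), a stricter one (1 CPM exceeded in every library), no block, the 2 compared groups alone, GC and length offsets, ribosomal and mitochondrial genes left out, each library left out in turn, and a change over 2-fold. The comparison of 16 with 8 HPI was added after the data had been seen. Floors of 3 counts cover counting error only.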

Additional observations from a re-analysis of the deposited data

Results flagged for a closer look

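Changes between injured groups that passed the test of that difference itself were seen in 13 members. Of all tested genes, 7.88% were lower and 7.3% higher from 8 to 16 HPI, and 6.22% were lower and 3.59% higher from 16 to 24 HPI. From 8 to 16 HPI the log2 differences were −0.26 for Cacna2d1, −0.23 for Cacna2d2, −0.28 for Cacnb4, −0.33 for Cacng2, −0.38 for Cacng5, −0.86 for Cacng8, −0.36 for Ryr2, −0.40 for Atp2b1, −0.24 for Atp2b2, −0.26 for Atp2b3 and −0.14 for Atp2c1. From 16 to 24 HPI they were −0.73 for Cacng3, 0.31 for Cacng5 and −0.25 for Stim2. Cacng5 therefore changed in opposite directions in the 2 steps, in all 3 replicate numbers. Without the replicate block Atp2b1 alone kept its call, and the call of Atp2c1 was kept in 6 of 15 alternatives. Groups of 3 libraries were too small for a check of single libraries that stand apart.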

How the results depend on the processing

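No named call reversed under any alternative. Without the replicate block, 51 of 59 named calls missed the threshold: the members called lower numbered 0 at 3 HPI, 0 at 8, 6 at 16, 1 at 24, 0 from 16 to 24 and 1 from 8 to 16 HPI, those called higher 0 in each comparison, and 1 passed over all 6 groups. With the 2-fold rule the counts were 1 lower at 8 HPI and 0 in every other comparison and direction. At 1 HPI the count of lower members was 2 with DESeq2, 1 with the looser filter, 1 with ribosomal and mitochondrial genes left out and 6 with the 2 groups alone. Of all genes these settings passed 117, 44, 41 and 378 as lower, in that order. At 3 HPI the count of lower members was 2 with DESeq2, 2 with the looser filter, 2 with the stricter filter and 0 with GC and length offsets, beside 121, 33, 32 and 10 of all genes. Higher members from 16 to 24 HPI numbered 3 with upper-quartile factors, 3 with the stricter filter, 3 with GC and length offsets and 2 with ribosomal and mitochondrial genes left out, and from 8 to 16 HPI 1 with the 2 groups alone. Of all genes these settings passed 549, 495, 630, 506 and 1022 as higher, in that order.

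With each library left out in turn, lower members numbered 0 to 1 at 1 HPI, 0 to 2 at 3, 1 to 6 at 8, 15 to 18 at 16, 13 to 17 at 24, 2 to 3 from 16 to 24 and 5 to 8 from 8 to 16 HPI. Higher members numbered 0 to 1 at 8 HPI, 1 to 3 from 16 to 24 HPI and 0 to 1 from 8 to 16 HPI, and 17 to 23 passed over all 6 groups. For fits with a library left out, calls over all genes are not given, here or above. These counts therefore do not show whether members changed more or less than all genes. The causes of these shifts were not tested, apart from the fewer libraries and the other genes tested that these settings bring by construction. Members with few counts, such as Cacna1g, Cacnb2, Slc8b1, Ryr1, Itpr1 and Itpr3, had the largest standard errors at 16 HPI. With 3 libraries a group, a member that missed the threshold is not shown to be unchanged.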
